A study of Homo sapiens with 2 samples.

Results

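The genes described here are 10 genes of iron uptake, iron storage and defence against ferroptosis, chosen by name from the 60664 genes counted in each library: TFRC, FTH1, FTL, SLC40A1, SLC11A2, IREB2, ACO1, NCOA4, GPX4 and AIFM2. Each symbol matched 1 Ensembl ID in the files. RNA was sequenced from HEK293T cells, an established human line of embryonic kidney origin that expresses a viral large T antigen. Both libraries are labelled as wild type and untreated, so there is 1 group of 2 replicates and no contrast between treatments. The cell line entry of replicate 2 reads HEK294T while its title reads HEK293T, and the title was followed. Replicate 1 held 18011638 assigned counts and replicate 2 held 18575058. Whether each replicate was its own culture is not stated, so differences between replicates may be technical.

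Cells take up most iron as transferrin bound to the transferrin receptor TFRC, carry it out of the endosome through SLC11A2, store it inside shells of the ferritin chains FTH1 and FTL, and release it from the cell through SLC40A1, ferroportin. When iron is scarce, the iron regulatory proteins encoded by ACO1 and IREB2 bind hairpins called iron-responsive elements in mRNAs of this pathway. Binding before the coding part blocks translation of the ferritins and ferroportin, and binding after it protects the TFRC mRNA from decay. Free iron drives the peroxidation of membrane lipids that kills cells by ferroptosis, which GPX4 and AIFM2 (also called FSP1) oppose by separate routes. Because this control acts largely on translation and mRNA stability, mRNA levels are not protein levels.

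The hairpins by which these mRNAs are known to be regulated are shown because the rule that chose the genes did not use them. Annotated coding transcripts (GENCODE 29, GRCh38) were searched on the RNA strand for the motif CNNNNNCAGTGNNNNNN or CNNNNNCAGAGNNNNNN, in which the 5 bases before the loop pair with the 5 after it, G-U pairs allowed. Each line gives 29 bases of the RNA strand, 5′ to 3′, written with T, and the capitals mark the 6 bases of the loop. The 5 TFRC elements are lettered in transcript order.
FTH1: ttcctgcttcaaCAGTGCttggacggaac
FTL: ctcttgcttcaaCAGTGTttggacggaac
SLC40A1: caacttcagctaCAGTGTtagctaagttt
TFRC a: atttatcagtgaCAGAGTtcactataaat
TFRC b: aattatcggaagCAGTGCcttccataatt
TFRC c: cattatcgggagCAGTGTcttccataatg
TFRC d: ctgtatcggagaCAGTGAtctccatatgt
TFRC e: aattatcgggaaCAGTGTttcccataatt

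In all, 4 of the 10 genes held a match with all 5 pairs, against 3.01% of the 19607 protein-coding genes searched. The motif describes elements already known in such mRNAs, so matches in these genes were foreseeable. The shares over all genes are given as background and not as a test. With the loop CAGTGN alone it was the same 4 genes, against 1.47%. A match in a 5′ UTR was found in 3 of the 10 genes and in 0.439% of all genes searched, and a match in a 3′ UTR in 1 and in 1.28%. The FTH1 element lies at chr11:61967574-61967602 on the minus strand, in the 5′ UTR of 7 of its 8 coding transcripts. The FTL element lies at chr19:48965335-48965363 on the plus strand, in the 5′ UTR of its 1 coding transcript, and matched the FTH1 element at 26 of 29 bases. The SLC40A1 element lies at chr2:189580661-189580689 on the minus strand, in the 5′ UTR of 1 of 5 coding transcripts, and matched the FTH1 element at 13 bases. The 5 TFRC elements lie on the minus strand in the 3′ UTR of 3 of 4 coding transcripts, from chr3:196051029-196051057 (a) to chr3:196050463-196050491 (e). Elements b and c were the most alike of the TFRC set, at 25 of 29 bases.

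**Figure D1:**
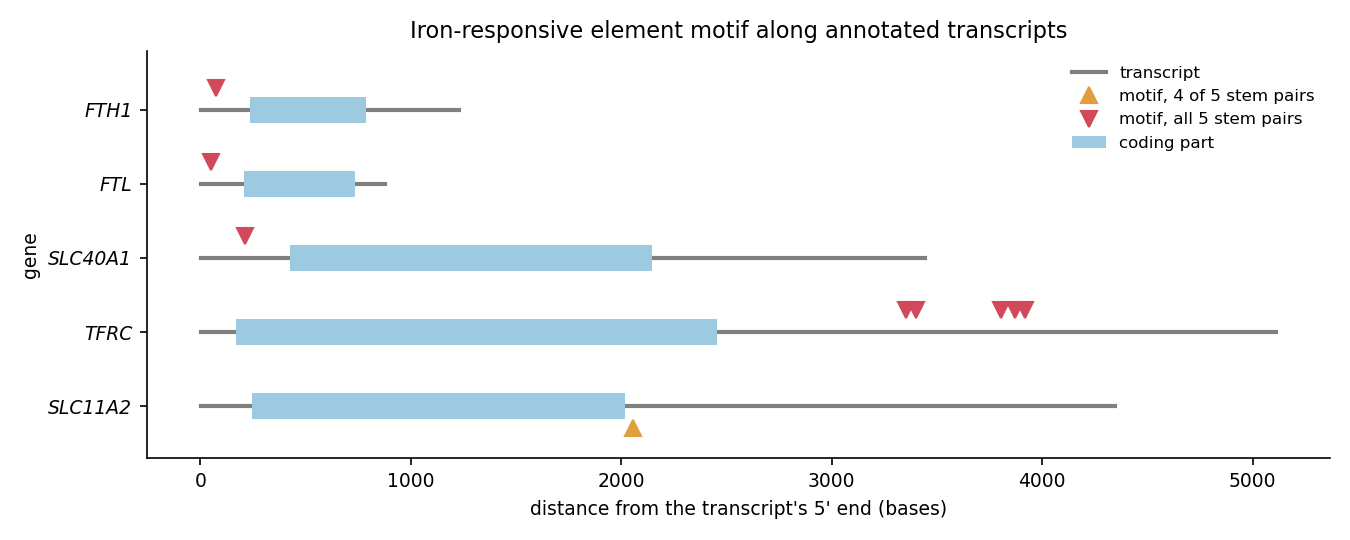
Position of the iron-responsive element motif along 1 annotated transcript of each gene, in bases from the transcript's 5′ end, with the coding part in blue. The ferritin and SLC40A1 markers sit before the coding part and the 5 TFRC markers after it, and the SLC11A2 marker with 4 of 5 pairs sits just after the coding part.

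SLC11A2 is known to be made as mRNAs with and without such an element. With 1 stem pair left unmatched, a choice made after seeing the data, the motif was found in the 3′ UTR of 5 of its 18 coding transcripts, at chr12:50988269-50988297 on the minus strand. The same search also matched the 5′ UTR of 1 transcript, with the loop CAGAGN, at chr12:51009234-51009262, which is not shown. The 3′ UTR site is shown for comparison with the set above.
SLC11A2: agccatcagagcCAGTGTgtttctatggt
This looser search matched 21.7% of all genes and 8 of the 10, so a match by it says little. The counts are per gene and do not separate transcripts that carry an element from those that do not, for SLC11A2 and SLC40A1 alike.

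All 10 genes were detected at 1 CPM (counts per 1000000 assigned counts) or more in both libraries. The share over all genes was 27.7% and over protein-coding genes 65.9%, and the latter is the background for each list count below. Together they took 42270 counts in replicate 1 and 43269 in replicate 2, which was 0.234% ± 0.00123 of the library (SD, n = 2). The ferritin chains held 75.2% of those counts in replicate 1 and 76.3% in replicate 2. Levels of different genes are compared below as TPM, which divides counts by exon length and scales them to a common total. The median of the 10 genes was 12.2 TPM, against 2.88 TPM over all protein-coding genes. In RNA from many cells, fewer cells with a transcript and less of it per cell cannot be told apart.

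**Figure D2:**
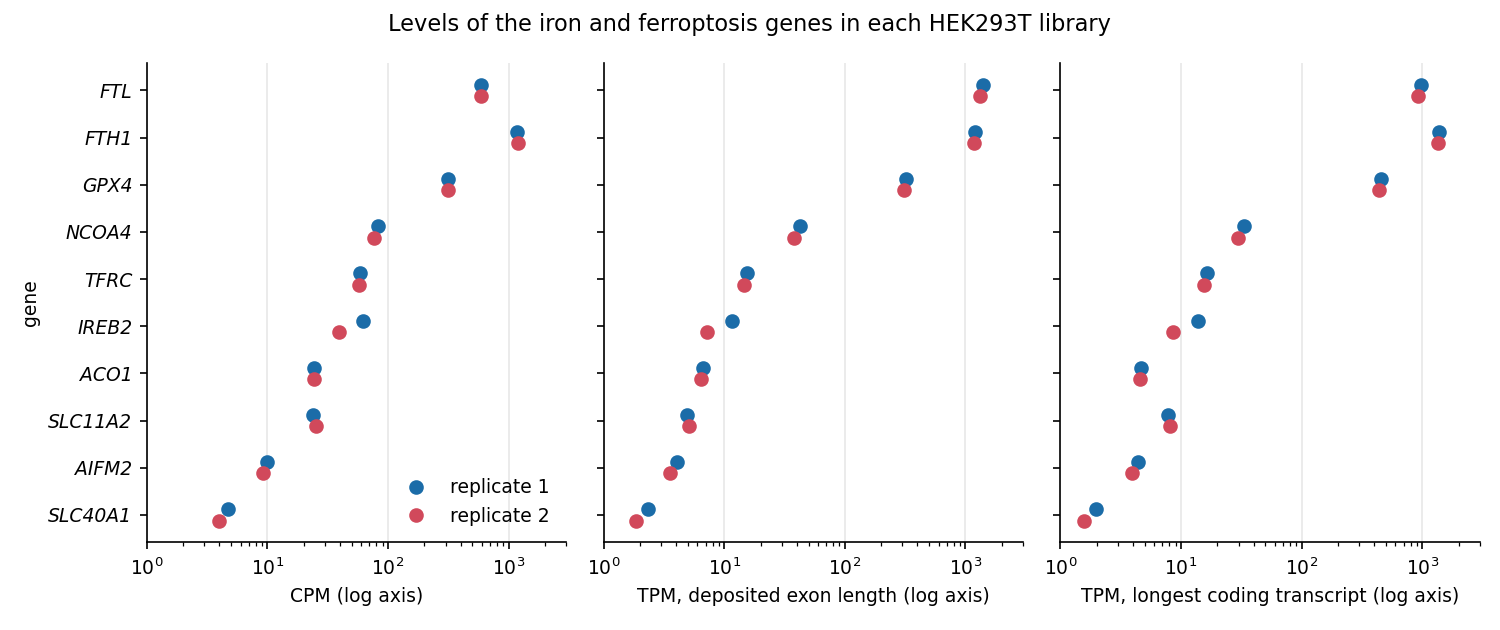
Level of each gene in replicate 1 (blue) and replicate 2 (red) as CPM, as TPM with the deposited exon length and as TPM by the longest coding transcript, all on log axes. The ferritin chains and GPX4 stand to the right in each panel and SLC40A1 to the left, and IREB2 shows the widest gap between the libraries.

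The storage genes were the most abundant. FTH1, the ferritin heavy chain that oxidises iron for storage, had 21098 counts in replicate 1 and 22168 in replicate 2. These were 1171 CPM (95% exact binomial interval 1156 to 1187) and 1193 CPM (1178 to 1209). The gene lies on chromosome 11 from 61959718 to 61967634. FTL, the light chain that helps build the iron core, had 10692 and 10864 counts, or 594 CPM (582 to 605) and 585 CPM (574 to 596). It lies on chromosome 19 from 48965309 to 48966879. Both genes differed little between the libraries, and each stood above at least 99.6% of protein-coding genes by TPM.

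Which ferritin chain led depended on the length used. With the deposited exon lengths, 2004 bases for FTH1 and 871 for FTL, FTL had 1368 ± 56.3 TPM and FTH1 1192 ± 20.8 (SD, n = 2). The ratio of FTH1 to FTL was then 0.858 in replicate 1 (counting interval 0.838 to 0.878) and 0.887 in replicate 2 (0.867 to 0.908). With the longest coding transcripts, 1229 and 878 bases, the order turned and the ratio was 1.41 and 1.46. Without length correction it was 1.97 and 2.04. Within each of these scales the libraries lay close together, so the choice of length and not the replicate spread set the order.

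FTH1 also shares exonic bases with a neighbour. BEST1, a chloride channel gene known from the retinal pigment epithelium, lies on the opposite strand and overlaps 1267 exonic bases of FTH1. This is 63.2% of FTH1's exonic bases and 14.6% of those of BEST1. BEST1 had 13672 counts in replicate 1 and 13824 in replicate 2, equal to 64.8% and 62.4% of the FTH1 counts. The strand setting of the counting is not given in the sources used here, so reads of one gene cannot be told apart from reads of the other over these bases, and the FTH1 level is uncertain. BEST1 was chosen after its values were seen. FTL shared no exonic bases with another gene.

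Processed copies of the ferritin genes, which arose from reverse-transcribed mRNAs, took few counts. The 25 genes named as FTH1 copies had 61 counts in replicate 1 and 47 in replicate 2, or 0.289% and 0.212% of the FTH1 counts. The 16 named FTL copies had 6 and 10 counts. FTH1P8 on chromosome X led with 18 and 14 counts, followed by FTH1P2 with 11 and 9, FTLP12 with 5 and 10, FTH1P23 with 6 and 7 and FTH1P7 with 8 and 5. How reads that align to several places were counted is not given in the sources used here, so the split of reads between these genes and their copies is uncertain.

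NCOA4, the receptor that delivers ferritin to autophagosomes so that its iron can be released, had 1476 and 1410 counts, on chromosome 10 from 46005088 to 46030623. Its CPM was 81.9 (77.8 to 86.2) in replicate 1 and 75.9 (72.0 to 80.0) in replicate 2. Its level of 40 ± 3.39 TPM was above that of 89% of protein-coding genes and far below that of its cargo. The 4 named NCOA4 copies had 0 counts and 2 counts.

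Other storage genes ranged from high levels to 0 counts. The chaperones that hand iron to ferritin were detected, PCBP1 at 226 ± 7.10 TPM and PCBP2 at 55.9 ± 5.78. Both values are uncertain, since 73.2% of the exonic sequence of PCBP1 and 32.7% of that of PCBP2 is shared with other genes. TAX1BP1, an autophagy receptor that works with NCOA4, had 17.9 ± 3.44 TPM, and HERC2, a ubiquitin ligase known to act on NCOA4, had 3.09 ± 0.297. The mitochondrial ferritin FTMT and the germ cell ferritin FTHL17 had 0 counts in both libraries, which allows up to 0.167 CPM in replicate 1 and 0.162 CPM in replicate 2. In this list 4 of 6 genes were detected, close to the 65.9% of all protein-coding genes, and the median was 10.5 TPM.

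Among the genes of uptake, TFRC was the most abundant by TPM. It lies on chromosome 3 from 196027183 to 196082096 and had 1052 counts in replicate 1 and 1063 in replicate 2, or 58.4 CPM (54.9 to 62.0) and 57.2 CPM (53.8 to 60.8). Its level was 15 ± 0.676 TPM, above 76.3% of protein-coding genes. SLC11A2, also called DMT1, moves ferrous iron across the endosomal membrane. It had 426 and 470 counts on chromosome 12 from 50979401 to 51028566, or 23.7 CPM (21.5 to 26.0) and 25.3 CPM (23.1 to 27.7). With its deposited exon length of 9888 bases this was 5 ± 0.0853 TPM, and with its longest coding transcript of 4348 bases 7.92 ± 0.177.

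Of 10 further uptake genes, 6 were detected, where the share over protein-coding genes was 65.9%. Their list had a median of 2.09 TPM. The zinc and iron importers SLC39A14 and SLC39A8 had 12.6 ± 0.0313 and 6.66 ± 1.40 TPM. MCOLN1, a channel that releases cations from lysosomes, had 10.7 ± 1.19 TPM. TF, which encodes transferrin itself, had 11 counts in replicate 1 and 5 in replicate 2. HFE, a partner of TFRC in iron sensing, had 1 and 2 counts, and STEAP4, a metalloreductase, had 0 and 1. TFR2, the receptor known from liver, had 4 and 0 counts and was named after its values were seen.

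SLC40A1, the exporter, was the lowest of the 10 genes on each of the 3 scales. It lies on chromosome 2 from 189560590 to 189583758 and had 85 and 73 counts, or 4.72 CPM (3.77 to 5.84) and 3.93 CPM (3.08 to 4.94). Its level was 2.08 ± 0.331 TPM, above 45.9% of protein-coding genes and the only one of the 10 below their median of 2.88. The ratio of TFRC to SLC40A1, of the importer to the exporter, was 6.70 in replicate 1 (5.37 to 8.46) and 7.88 in replicate 2 (6.21 to 10.1). These counting intervals overlap, and the ratio stayed above 1 with the longest coding transcripts (9.07 ± 1.04) and without length correction (13.5 ± 1.55).

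The genes listed beside the exporter were ferroxidases and genes of the hepcidin axis. Of these 6, 2 were detected, where the share over protein-coding genes was 65.9%, and the median was 0.239 TPM. BMP6, a ligand that induces hepcidin in liver, had 16.8 ± 5.98 TPM, with 694 counts in replicate 1 and 447 in replicate 2. CP, the ferroxidase ceruloplasmin, had 122 counts in replicate 1 and 37 in replicate 2. TMPRSS6, a protease that restrains hepcidin, had 19 and 16 counts. HAMP, which encodes hepcidin, the hormone that removes ferroportin from the membrane, had 1 count and 0. The ferroxidase HEPH and the BMP co-receptor HJV had 0 counts in both libraries.

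Of the regulatory pair, IREB2 was the higher in both libraries on each of the 3 scales. IREB2 encodes iron regulatory protein 2, which is degraded when iron is plentiful. It lies on chromosome 15 from 78437431 to 78501453 and had 1107 counts in replicate 1 and 725 in replicate 2, or 61.5 CPM (57.9 to 65.2) and 39.0 CPM (36.2 to 42.0). ACO1 encodes iron regulatory protein 1, which serves as an aconitase when it carries an iron-sulfur cluster. It lies on chromosome 9 from 32384603 to 32454769 and had 440 and 454 counts, both equal to 24.4 CPM (22.2 to 26.8). IREB2 had 9.45 ± 3.26 TPM and ACO1 6.54 ± 0.198. The ratio of IREB2 to ACO1 was 1.76 in replicate 1 (1.57 to 1.97) and 1.12 in replicate 2 (0.992 to 1.26), so its size rested on the library. With the longest coding transcripts it was 2.96 and 1.88.

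All 8 genes that control these regulators were detected, at a median of 36.9 TPM. FBXL5, the iron-sensing ligase subunit that marks IREB2 for degradation, had 22.6 ± 1.45 TPM, and its partners SKP1 and CUL1 had 25.4 ± 2.72 and 48.5 ± 1.21. Cytosolic iron-sulfur assembly genes ranged from CIAO3 (12 ± 0.8 TPM) and MMS19 (20.1 ± 1.86) to CIAO1 (49.1 ± 3.98), GLRX3 (51.0 ± 1.17) and CIAO2B (323 ± 11.5). Of 6 other mRNAs known to carry an element, 5 were detected. PFN2, an actin regulator, had 93.0 ± 9.76 TPM. CDC42BPA had 5.36 ± 0.281, EPAS1, the hypoxia factor, had 1.92 ± 0.304 and CDC14A had 1.05 ± 0.331. ALAS2, the haem synthesis enzyme of red cell precursors, had 2 counts in each library. The motif with all 5 pairs was found in ALAS2, CDC14A and CDC42BPA.

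**Figure D3:**
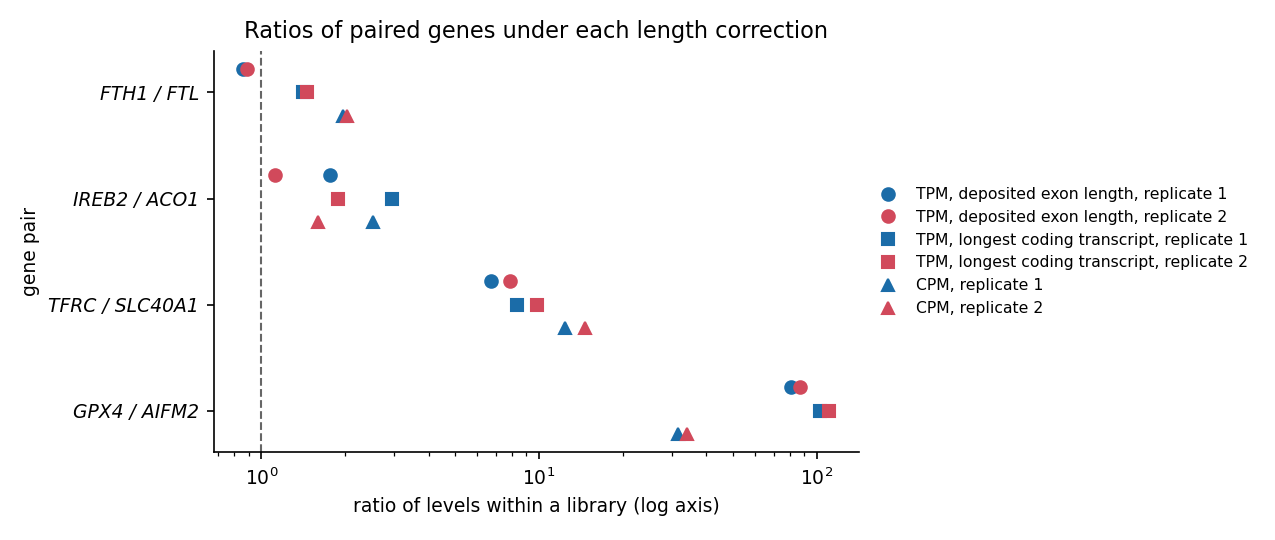
Ratio of levels of paired genes within each library, on a log axis, under the deposited exon length (circles), the longest coding transcript (squares) and no length correction (triangles), with replicate 1 in blue and replicate 2 in red. FTH1 to FTL crosses 1 with the choice of length, while the other 3 pairs stay above 1 in both libraries, with IREB2 to ACO1 at 1.12 in replicate 2 by the deposited length.

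The ferroptosis suppressors differed widely in level. GPX4, a selenoenzyme that reduces lipid hydroperoxides with glutathione, had 5714 and 5870 counts on chromosome 19 from 1103926 to 1106791. Its CPM was 317 (309 to 326) and 316 (308 to 324), and its level of 317 ± 10.6 TPM was above that of 98.5% of protein-coding genes. AIFM2, which regenerates radical-trapping quinols at membranes, had 180 and 172 counts on chromosome 10 from 70098223 to 70132934. Its CPM was 9.99 (8.59 to 11.6) and 9.26 (7.93 to 10.8), and its level was 3.79 ± 0.320 TPM. AIFM2 shares 19.2% of its exonic bases with MACROH2A2 on the opposite strand, which is 6.58% of those of MACROH2A2. MACROH2A2 had more counts than AIFM2, with 1157 in replicate 1 and 1399 in replicate 2. The strand setting of the counting is not given, so reads of one gene cannot be told apart from reads of the other over these bases. The AIFM2 level and the ratio below are therefore less certain than their counting intervals show. The ratio of GPX4 to AIFM2 was 80.7 in replicate 1 (69.6 to 94.2) and 86.8 in replicate 2 (74.6 to 102), and over both libraries 32.9 ± 1.69 without length correction.

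GPX4 is made by reading a UGA stop codon as selenocysteine. An in-frame TGA was found in 4 of 6 annotated transcripts with a complete coding part, at chr19:1105391-1105417 on the plus strand, and is shown with 12 coding bases on each side because the enzyme depends on it. The search also found 3 other in-frame TGA sites, each in 1 transcript, which are not shown.
GPX4: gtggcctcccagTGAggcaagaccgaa
All 8 genes listed for selenocysteine supply and insertion were detected, at a median of 7.96 TPM. SEPHS2, which makes the active selenium donor, led with 246 ± 8.37 TPM. EEFSEC, the elongation factor for selenocysteine, had 26.0 ± 1.04, TRNAU1AP 20.8 ± 0.946 and SECISBP2, which binds the insertion element in selenoprotein mRNAs, 8.87 ± 0.926. The kinase PSTK had 7.06 ± 0.332, the selenocysteine lyase SCLY 5.03 ± 0.350, the selenoprotein P receptor LRP8 1.23 ± 0.0881 and the synthase SEPSECS 1.11 ± 0.165.

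Genes of cystine import and of the making, recycling or breakdown of glutathione, the GPX4 co-substrate, were detected in 9 of 9 cases at a median of 14.4 TPM. SLC3A2, the heavy chain of the cystine antiporter, had 113 ± 6.45 TPM, CHAC1, a glutathione-degrading enzyme, 53.6 ± 3.15, and CTH, which makes cysteine, 30.0 ± 2.80. GCLC, the catalytic subunit of the enzyme that starts glutathione synthesis, had 5.34 ± 0.733 and CBS, which acts before CTH, 7.63 ± 0.808. GCLM, the modifier subunit of the same enzyme as GCLC, had 523 counts in replicate 1 and 241 in replicate 2. SLC7A11, the transporting chain of the antiporter, had 10.7 ± 1.07 TPM and was named after its values were seen.

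Genes listed around GPX4-independent radical trapping were detected in 12 of 12 cases at a median of 12 TPM. The list also holds genes of sterol and lipid metabolism that do not trap radicals themselves, so 12 of 12 is not a count of defence genes. STARD7, a lipid transfer protein, had 65.1 ± 0.351 TPM. NMT1, which attaches the lipid anchor to proteins such as AIFM2, had 20.3 ± 1.81, and DHCR7, a sterol reductase, 19.5 ± 1.46. The lowest were MBOAT2 (5.10 ± 0.393 TPM), DHODH (3.55 ± 0.0621), which reduces quinone in mitochondria, and MBOAT1 (1.42 ± 0.129). Of 12 genes of polyunsaturated lipid synthesis and peroxidation, 8 were detected, at a median of 5.15 TPM. This count is close to the 65.9% of all protein-coding genes detected. SAT1, a polyamine enzyme, had 43.0 ± 2.41 TPM, FAR1, of ether lipid synthesis, 21.1 ± 3.58 and CYB5R1, an electron donor, 19.8 ± 0.870. The lipoxygenase genes ALOXE3, ALOX15B and ALOX15 had 10 or fewer counts in each library. Of the other lipoxygenase genes listed, ALOX12 was detected, with 70 counts in replicate 1 and 41 in replicate 2. ALOX5 was not, with 28 and 9 counts. ALOX12 and ALOX5 were named after their values were seen. ACSL4, which loads polyunsaturated fatty acids for phospholipids, had 4.25 ± 1.32 TPM and was named after its values were seen.

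Mitochondrial iron genes were detected in 15 of 15 cases at a median of 27.6 TPM. HSPA9, the chaperone of iron-sulfur transfer, had 69.3 ± 1.28 TPM, FDX2, a ferredoxin, 66.3 ± 1.59 and GLRX5, a glutaredoxin, 54.6 ± 14.1. The FDX2 value is uncertain, since 70.9% of its exonic sequence is shared with neighbouring genes. FECH, which inserts iron into haem, had 6.98 ± 0.899 and the iron importer SLC25A37 6.12 ± 0.75. All 6 genes of haem handling were detected, at a median of 35.6 TPM. The biliverdin reductases BLVRB and BLVRA had 157 ± 7.63 and 59.9 ± 1.38 TPM, the haem oxygenases HMOX1 and HMOX2 36.1 ± 0.852 and 35.2 ± 3.08, and the haem transporters FLVCR1 and SLC48A1 5.13 ± 0.804 and 3.19 ± 0.104.

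**Figure D4:**
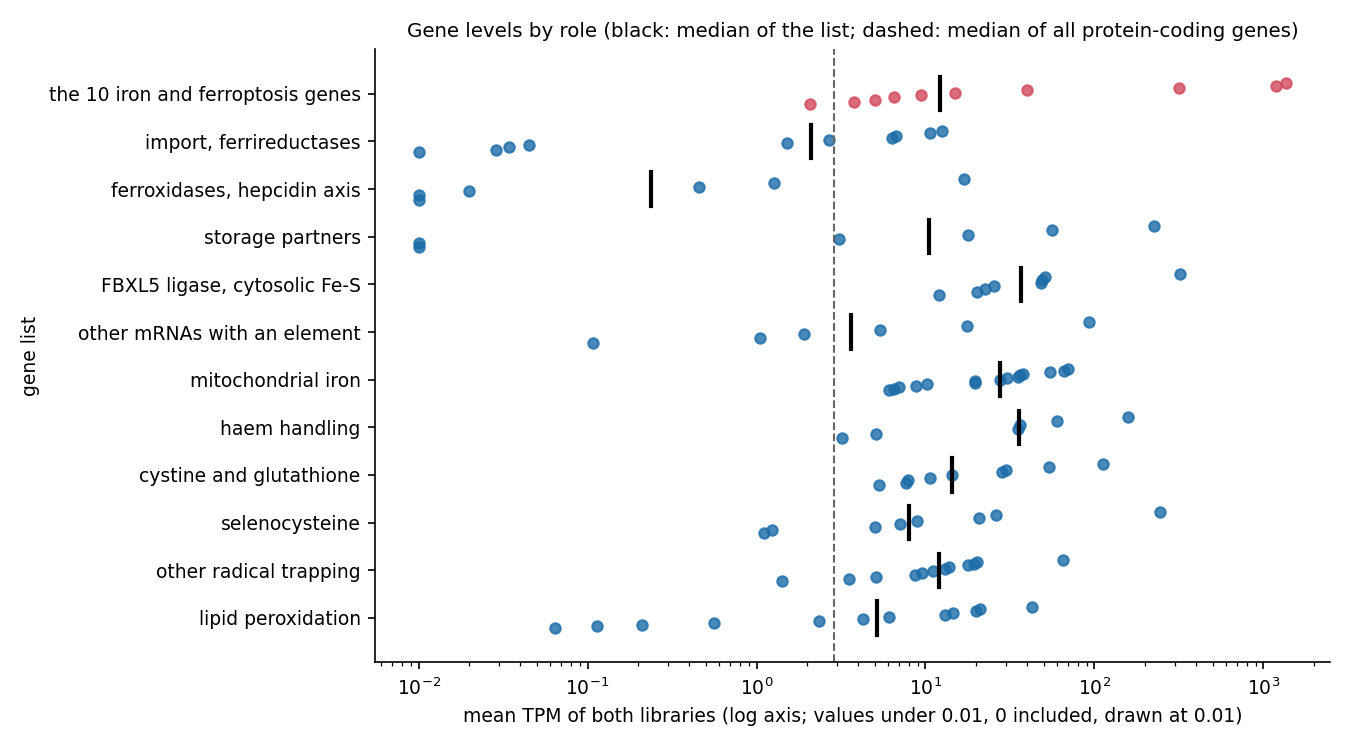
Mean TPM of each gene (dots) by role on a log axis, with the median of each list as a black bar and the median of all protein-coding genes, 2.88 TPM, as a dashed line. Of the 10 genes (red), SLC40A1 alone lies left of the dashed line, and genes below 0.01 TPM, those at 0 included, are drawn at 0.01.

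Ordered by TPM with the deposited lengths, the 10 genes ran FTL, FTH1, GPX4, NCOA4, TFRC, IREB2, ACO1, SLC11A2, AIFM2 and SLC40A1. The ranges of the libraries did not overlap for any of the 9 neighbouring pairs. With the longest coding transcripts the ferritin chains changed places, as did ACO1 (4.61 ± 0.115 TPM) and SLC11A2, and again all 9 pairs were apart. With CPM, 7 of 9 pairs were apart. TFRC overlapped IREB2 there, and SLC11A2 overlapped ACO1. A range over 2 libraries is a weak guide to the true spread.

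Between the libraries, 9 of the 10 genes differed little and IREB2 was lower in replicate 2. On the log2 scale of replicate 2 over replicate 1, the ratio was -0.62 for IREB2, with a 95% counting interval of -0.76 to -0.49. Only 5.56% of the 14704 genes averaging 50 counts or more had a lower ratio. For the other genes it ran from -0.23 for SLC40A1 (-0.71 to 0.23) to 0.13 for SLC11A2 (-0.06 to 0.32). FTH1 had 0.06 (0.03 to 0.08), the only other interval that left out 0, and 0.02 after centring on GC content. No member passed 1 log2 in either direction, where 1.92% of all tested genes were lower in replicate 2 and 0.143% higher. Each ratio sets 1 library against 1 other, so it was not tested. The biological coefficient of variation between libraries, from edgeR, was 15.6% over 18315 genes and 13.1% at the abundance of IREB2.

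Base composition moved with this difference. Among the 2395 genes lowest in GC content of the longest coding transcript, 30.2% to 41.1%, the median log2 ratio was -0.29 and 7.77% were lower by 1 log2 or more. Among the 2395 genes highest in GC content the median was 0.10 and the share 0.418%. The GC content was 38.3% for IREB2, the lowest of the 10, and ranged from 41.5% for TFRC to 65.2% for GPX4 in the others. After centring on GC content the IREB2 ratio was -0.30, still the lowest of the 10. The others then ran from -0.21 for AIFM2 to 0.20 for SLC11A2, with SLC40A1 at -0.15, FTL at -0.12, ACO1 at 0.07 and TFRC at 0.15, so IREB2 stood less far from them than before centring. The part of GC content in the IREB2 difference was not tested.

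**Figure D5:**
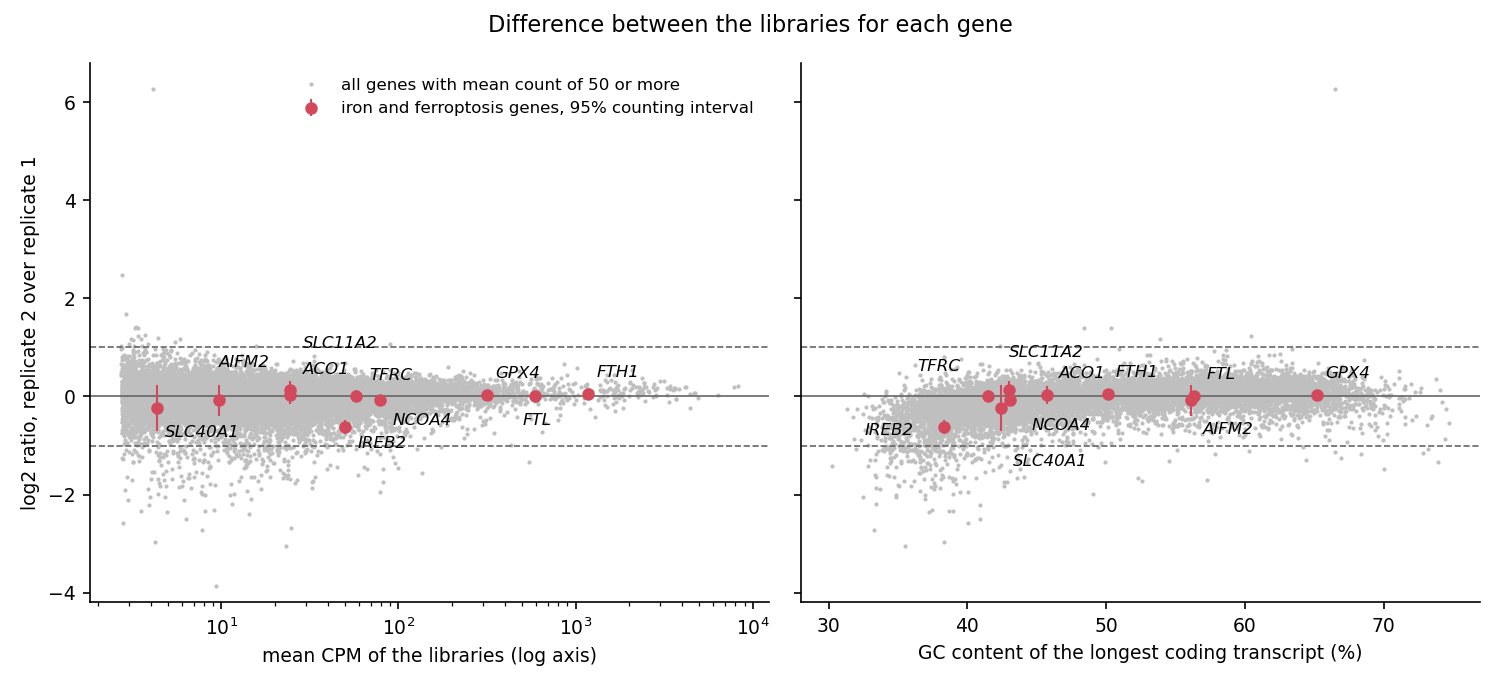
Log2 ratio of replicate 2 over replicate 1 for all genes averaging 50 counts or more (grey) and for the 10 genes (red, with 95% counting intervals), against mean CPM on a log axis and against GC content of the longest coding transcript. Dashed lines mark 1 log2, which no red point passes, and IREB2 at -0.62 lies lowest of the 10, at the low end of GC content.

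Of the 98 other iron and ferroptosis genes, 83 were detected, where the share over protein-coding genes was 65.9%. Of the 83 that averaged 50 counts or more, 2 were at least 1 log2 lower in replicate 2, near the 1.92% of all tested genes. These were CP (-1.68) and GCLM (-1.13), whose transcripts have a GC content of 39.1% and 37.3%. None was higher by 1 log2 or more. Of 8 genes known from HEK293 lines, 7 were detected, from UCHL1 (334 ± 5.81 TPM) to IGF2BP1 (9.05 ± 0.304), and PAX2 was not, with 23 and 15 counts. Summed over each list, markers of hepatocytes had 1.5 and 1.24 CPM and those of macrophages 0.555 and 0.861 CPM. Of the hepatocyte sum, APOA1 gave 1.33 and 1.24 CPM and was detected, while ALB, TTR, SERPINA1 and HP had at most 1 count in a library. Red cell precursor markers summed to 16.6 and 20.1 CPM, of which EPOR gave 16.4 and 17.8. SLC4A1 had 0 counts in both libraries, and HBB had 0 counts in replicate 1 and 38 (2.05 CPM) in replicate 2. Enterocyte markers summed to 47.1 and 50.1 CPM, from CDX2 and VIL1, with FABP2, SI and ALPI at 0. The VIL1 value is uncertain, since 44.2% of its exonic sequence is shared with other genes.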

How the data were processed

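For each library the authors deposited 1 table of whole-number counts for Ensembl genes with no normalisation. Per the submitters' processing notes, reads were handled with featureCounts 2.0.3, Trim Galore 0.6.7 and bcl2fastq 2.17 on GRCh38. No source used here gives the aligner, the annotation release, or how strand, overlapping genes and multi-mapping reads were treated. RNA was reverse transcribed from an oligo(dT) primer, per the labels' protocols, so transcripts with a poly(A) tail are favoured.

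Symbols matched 60463 of 60664 IDs. CPM and TPM were computed from the counts, totals and deposited exon lengths, which merge all exons of a gene. Transcripts and gene types came from GENCODE 29, which holds 58396 of the IDs. Exon overlap was computed with bedtools 2.31.1, and genes sharing 25% or more were called uncertain. Ratios between libraries were scaled by TMM (1.01 and 0.989) in edgeR 4.0.16 with R 4.3.3, adding a prior count of 2, with DESeq2 1.42.0 size factors as an alternative. The ratios between libraries and the common coefficient of variation were tested on simulated counts, with less spread than the data and no trend with GC content. Intervals are exact 95% binomial intervals and, like the 3 counts that a count of 0 allows, cover counting error only: without molecular identifiers, reads cannot be counted as independent molecules.

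The 10 genes, the lists and the alternatives were chosen with earlier results of these data known. Named genes were the 10, all of each list with 8 or fewer genes, the 3 highest and 3 lowest by TPM of longer lists, and the 5 processed copies with most counts; a few genes that this rule or the marker lists name are not reported here. The protein comparison that was planned is not analysed here. No test between groups was run, because there is 1 group.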

Additional observations from a re-analysis of the deposited data

How the results depend on the processing

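The choice of length moved the levels most. The ratio of FTH1 to FTL, 0.872 with deposited exon lengths, turned to 1.43 with the longest coding transcripts and to 2.01 without length correction. Over the same settings the ratio of IREB2 to ACO1 went from 1.44 to 2.42 and 2.06, that of TFRC to SLC40A1 from 7.29 to 9.07 and 13.5, and that of GPX4 to AIFM2 from 83.8 to 107 and 32.9. Leaving out 1 library gave ranges of 0.858 to 0.887, 1.12 to 1.76, 6.70 to 7.88 and 80.7 to 86.8 for these pairs, and 10.8 to 13.6 TPM for the median of the 10 genes. Without genes sharing 25% or more of their exonic bases, which removes FTH1, that median was 9.45 TPM. At 1 TPM in place of 1 CPM, 1 gene of the ferroxidase and hepcidin list was detected in place of 2. With 4 of 5 stem pairs, 8 of the 10 genes held the motif in place of 4. The genes past 1 log2 between libraries, 282 lower and 21 higher in replicate 2, became 562 and 214 at a mean count of 10, 154 and 2 at 200, and 2257 and 1172 with no filter. The other alternatives kept their counts within 1.5 times or their values within the replicate spread for these summaries, and no member passed 1 log2 under any scaling or prior count tried. At 5 CPM, 9 of the 10 genes were detected. Depth limits SLC40A1 and AIFM2 most, with 73 to 180 counts in a library. No paired analysis was possible because there is 1 group, and its replicate numbers have no partner in another group.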
